A study of Mus musculus with 8 samples.

Results

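Polycomb repressive complex 2 (PRC2) was examined through the H3K27ac peaks at the genes that encode it: Ezh1, Ezh2, Eed, Suz12, Jarid2, Mtf2, Phf19, Aebp2, Rbbp4 and Rbbp7. These 10 of the 21951 protein-coding genes of GENCODE M21 were taken by name, and every deposited peak over one of them or within 20 kb of it was followed, 15 peaks in proliferating and 21 in differentiating cells. H3K27ac, acetylation of lysine 27 of histone H3, marks active promoters and enhancers. It was mapped by chromatin immunoprecipitation and sequencing (ChIP-seq) in Oli-neu, a mouse line labelled as oligodendrocyte progenitors of embryonic origin, strain C57BL/6. Proliferating cells grew with bFGF and Pdgf-BB, and differentiating cells were kept for 1 day without growth factors and with 1 µM PD174265, an erb inhibitor. Both states share the thyroid hormones T3 and L-thyroxine of the base medium, and both come from this 1 immortalised line. Each state gave 1 library, so no difference between the states could be set against a replicate spread, and no test was run. The study also holds 6 ATAC-seq samples, 3 with siCtr and 3 with siPadi2, which were not analysed here. The oligodendrocyte lineage genes Olig2 and Sox10 had a promoter peak in both states.

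PRC2 places methyl groups on the same lysine, and a lysine 27 that is methylated cannot be acetylated, so H3K27ac and the PRC2 product exclude each other on a histone tail. Ezh2, or its relative Ezh1, is the catalytic subunit, Eed binds the methylated product and Suz12 holds the core together. Rbbp4 and Rbbp7 bind histones. Jarid2 and Aebp2 define the form called PRC2.2, and the Polycomb-like proteins Mtf2 and Phf19 belong to PRC2.1. In the oligodendrocyte lineage, Ezh2 is known for high levels in progenitors.

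The start sites of the members are shown first, since most of the strong peaks lay there. All 10 genes matched the RefSeq promoter table (GRCm38.p6), which gives 250 bases before and 50 bases after each start. The 7 sequences below read 5′ to 3′ along the gene, and capitals mark letters that match 1 of 8 short motifs on either strand: GGGCGG (SP and KLF factors), CCAAT (NF-Y), CCGGAAG (ETS factors), GCGCATGCG (NRF1), TTTGGCG or TTTCCCG (E2F), CACGTG (E-box factors) and GCCATNTT (YY1). Ezh2, Suz12 and Eed are shown as the catalytic and core genes with a peak over the whole promoter in both states.
Ezh2 promoter, chr6:47594981-47595280, minus strand: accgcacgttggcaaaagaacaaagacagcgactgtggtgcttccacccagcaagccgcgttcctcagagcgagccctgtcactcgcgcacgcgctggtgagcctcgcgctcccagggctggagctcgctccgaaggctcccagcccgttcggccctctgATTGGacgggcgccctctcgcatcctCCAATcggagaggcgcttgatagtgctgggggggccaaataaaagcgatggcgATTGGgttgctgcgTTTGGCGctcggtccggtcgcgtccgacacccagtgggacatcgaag
Suz12 promoter, chr11:79992856-79993155, plus strand: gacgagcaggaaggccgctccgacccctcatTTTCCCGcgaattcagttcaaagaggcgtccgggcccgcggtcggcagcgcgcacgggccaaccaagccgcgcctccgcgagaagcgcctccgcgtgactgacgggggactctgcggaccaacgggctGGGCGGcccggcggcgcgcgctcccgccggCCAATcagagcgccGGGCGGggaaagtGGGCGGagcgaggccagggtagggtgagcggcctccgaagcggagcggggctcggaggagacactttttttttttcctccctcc
Eed promoter, chr7:89980927-89981226, minus strand: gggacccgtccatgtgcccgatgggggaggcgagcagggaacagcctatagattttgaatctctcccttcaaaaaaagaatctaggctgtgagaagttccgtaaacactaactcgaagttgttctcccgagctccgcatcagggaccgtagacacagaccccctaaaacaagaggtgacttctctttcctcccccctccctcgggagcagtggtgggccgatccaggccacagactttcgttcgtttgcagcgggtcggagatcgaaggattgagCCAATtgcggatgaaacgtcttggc
Rbbp7 and Mtf2 are shown because their promoters lay under a peak in 1 state alone.
Rbbp7 promoter, chrX:162760122-162760421, plus strand: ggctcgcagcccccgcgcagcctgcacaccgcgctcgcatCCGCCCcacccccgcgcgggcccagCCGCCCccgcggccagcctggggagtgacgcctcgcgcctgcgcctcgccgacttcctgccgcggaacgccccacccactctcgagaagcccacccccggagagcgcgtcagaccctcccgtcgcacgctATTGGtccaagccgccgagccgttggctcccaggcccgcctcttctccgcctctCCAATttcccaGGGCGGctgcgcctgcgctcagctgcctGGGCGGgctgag
Mtf2 promoter, chr5:108065424-108065723, plus strand: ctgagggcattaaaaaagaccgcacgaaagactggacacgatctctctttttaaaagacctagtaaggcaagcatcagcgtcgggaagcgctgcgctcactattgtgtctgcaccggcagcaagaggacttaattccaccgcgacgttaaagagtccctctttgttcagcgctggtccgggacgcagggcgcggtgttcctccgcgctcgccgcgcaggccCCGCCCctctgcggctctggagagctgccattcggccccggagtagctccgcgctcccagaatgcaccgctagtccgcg
Ezh1 is shown because its promoter lay under no peak, and Jarid2 because its RefSeq start lies 1300 bp inside the gene, where the peaks were.
Ezh1 promoter, chr11:101226414-101226713, minus strand: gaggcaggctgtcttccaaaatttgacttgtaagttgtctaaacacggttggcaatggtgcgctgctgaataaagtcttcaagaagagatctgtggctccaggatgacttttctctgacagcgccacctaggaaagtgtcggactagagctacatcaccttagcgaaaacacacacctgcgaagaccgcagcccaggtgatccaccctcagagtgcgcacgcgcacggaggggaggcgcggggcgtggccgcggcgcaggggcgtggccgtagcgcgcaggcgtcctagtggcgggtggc
Jarid2 promoter, chr13:44730524-44730823, plus strand: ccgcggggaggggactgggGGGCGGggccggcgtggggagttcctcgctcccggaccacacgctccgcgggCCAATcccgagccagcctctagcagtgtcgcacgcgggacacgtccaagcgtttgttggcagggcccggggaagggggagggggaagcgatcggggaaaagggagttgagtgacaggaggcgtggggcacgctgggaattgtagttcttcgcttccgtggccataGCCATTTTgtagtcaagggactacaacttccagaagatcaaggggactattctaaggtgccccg
The Ezh2 promoter held CCAAT at 3 places and TTTGGCG at 1, the last of which began just downstream of the start. Suz12 held GGGCGG at 3 places and Rbbp7 at 4, and the Ezh1 promoter held none of the 8 motifs. Over the first promoter listed for each of the 10 genes, GGGCGG was found in 6 and CCAAT in 6, and these letters occur in 35.7% and 37.4% of all 32851 promoters. An E2F match was found in 3 of the members, Ezh2, Suz12 and Phf19, and in 4.84% of all promoters. YY1 letters were in 2 members (6.05% of all promoters) and the E-box in 1 (7.15%). None of the 10 held the ETS or NRF1 letters, which are in 8.86% and 1.75% of all promoters. Motifs of different factors did not overlap in the printed promoters. A match describes letters and not a bound site. The shares are over all promoters and were not matched for base composition, so they give no measure of enrichment in the members.

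The promoters of 5 of the 10 genes carried H3K27ac in proliferating cells and of 5 in differentiating cells, 4 of them in both states. A promoter was taken as the 3000 bp before and the 100 bp after the start of the gene record (its TSS, transcription start site). Such a promoter peak was present in proliferating cells for 23.7% of all protein-coding genes, in differentiating cells for 27.7% and in both states for 17.6%. Ezh2, Eed, Suz12 and Rbbp4 had a promoter peak in both states, Rbbp7 in proliferating cells alone and Mtf2 in differentiating cells alone. Jarid2 and Aebp2 had their peaks just downstream, over the starts of shorter transcripts. When a peak over the TSS of any protein-coding transcript was counted, the numbers were 7 in each state and 6 in both, against 20.5%, 25.3% and 15.4% of all genes. These shares were not matched for the number of coding starts per gene. Only Ezh1 and Phf19 had no such peak in either state.

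**Figure D1:**
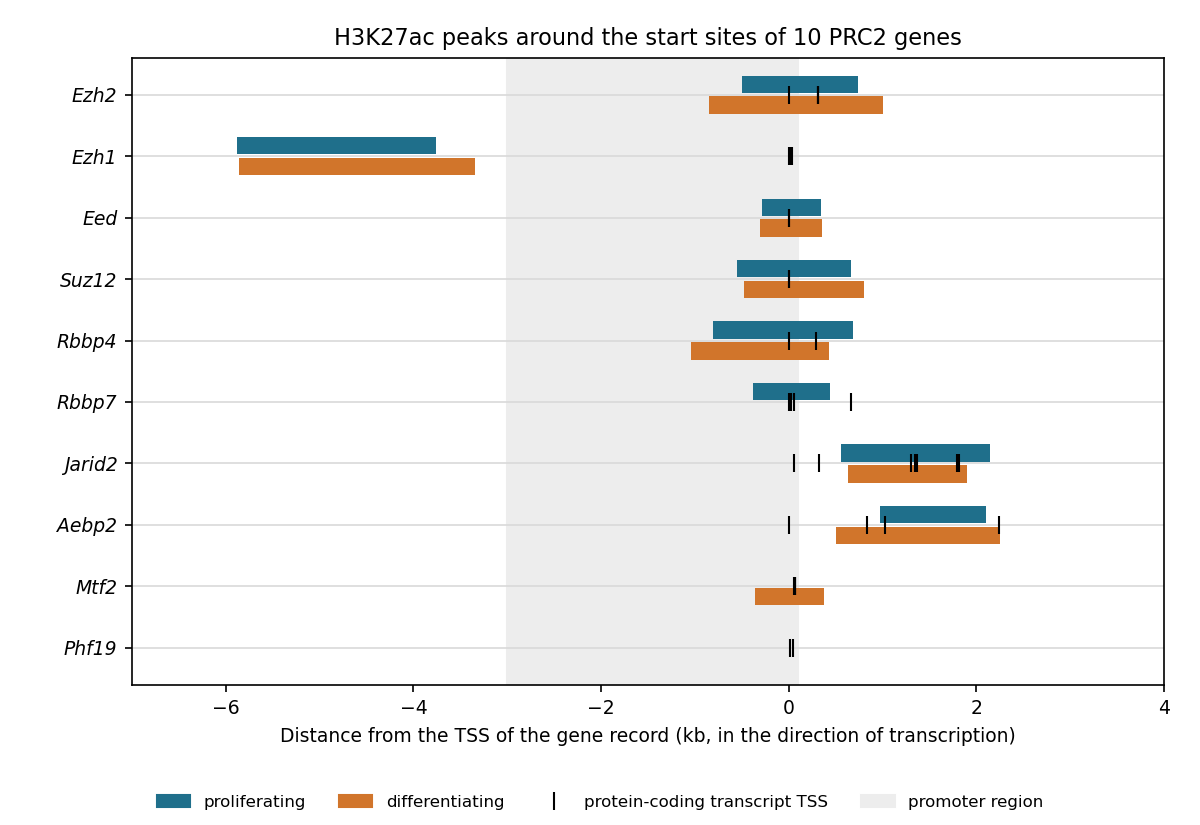
Position of H3K27ac peaks from 7 kb before to 4 kb after the TSS of each gene record, with bars for the peaks of proliferating and differentiating cells, ticks for the starts of protein-coding transcripts and grey for the promoter region. Ezh2, Eed, Suz12 and Rbbp4 carry bars over the start in both states, Rbbp7 and Mtf2 in 1 state, Jarid2 and Aebp2 further into the gene, and the bars of Ezh1 lie upstream of the region.

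The base composition of the starts was set beside these counts, and its part in them was not tested. A start was called CpG-rich where the 300 bases had at least 50% GC and an observed over expected CpG ratio of at least 0.6. By this rule 8 of the 10 genes had a CpG-rich start, the exceptions being the outermost starts of Jarid2 (ratio 0.50) and Aebp2 (ratio 0.23), against 41.3% of all protein-coding genes. Among all CpG-rich starts the share with a promoter peak was 42.1% (proliferating) and 49.8% (differentiating), and among the others 10.8% and 12.2%. Of the 8 CpG-rich members 5 had one in each state (62.5%, 95% exact Clopper-Pearson interval 24.5% to 91.5%, counting error only). The interval holds the share of all CpG-rich genes in both states, so 8 genes cannot separate the members from other genes of like composition. Of all genes with a CpG-rich start, 35.5% (proliferating) and 43.8% (differentiating) had a peak over the TSS of a protein-coding transcript. Of the 8 CpG-rich members, the same 5 as before had one in each state. Jarid2 and Aebp2 are outside this class.

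A peak over the gene or within 20 kb was found for 8 genes in the proliferating list, for 9 in the differentiating list and for 7 in both, and all 10 had one in at least 1 state. Among all protein-coding genes these shares were 62.7% (proliferating), 62.7% (differentiating) and 53.1% (both). The members are long, with a median of 38.2 kb against 17.4 kb for all protein-coding genes, and the part of gene length in these counts was not tested. The median number of peaks in a window was 1 in proliferating and 2 in differentiating cells for the members, and 1 in each state for all genes. The mean was 1.5 and 2.1 for the members and 1.51 and 1.53 for all genes.

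Each peak carries a fold enrichment (a ratio), a −log10 p and a −log10 q from the peak calling of the authors. No read counts were given with them, so the depth behind a peak is unknown. The values were ranked within their own list, and a percentile is the share of the 28924 proliferating or 27965 differentiating peaks with a lower value. The 7 start-site peaks of proliferating cells, in the promoter region or over a coding start, stood between percentiles 89.5 and 99.5 of −log10 q, with a median of 90.9. The 7 of differentiating cells stood between 92.4 and 97.7, with a median of 95.9. For comparison, the start-site peaks of all protein-coding genes had a median percentile of 76.8 among 5323 peaks and 76.1 among 6216 peaks. The 8 other peaks near the members in proliferating cells ranged from percentile 4.28 to 98.7 with a median of 30.8, and the 14 in differentiating cells from 1.71 to 95.7 with a median of 50.03. All peaks away from the start of any protein-coding gene had medians of 44.4 and 42.7. The median of the members' other peaks lay below that value in proliferating cells and above it in differentiating cells. The 2 sets are not alike, since the members' other peaks include the peak over the start of the neighbour Plekhh3, at percentiles 4.28 and 19.3. The start-site peaks of the members thus all stood in the upper part of their lists, whereas the other peaks were spread over the whole range. By the medians above, start-site peaks ranked above other peaks over all protein-coding genes too. The comparison was not matched for CpG-rich starts.

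**Figure D2:**
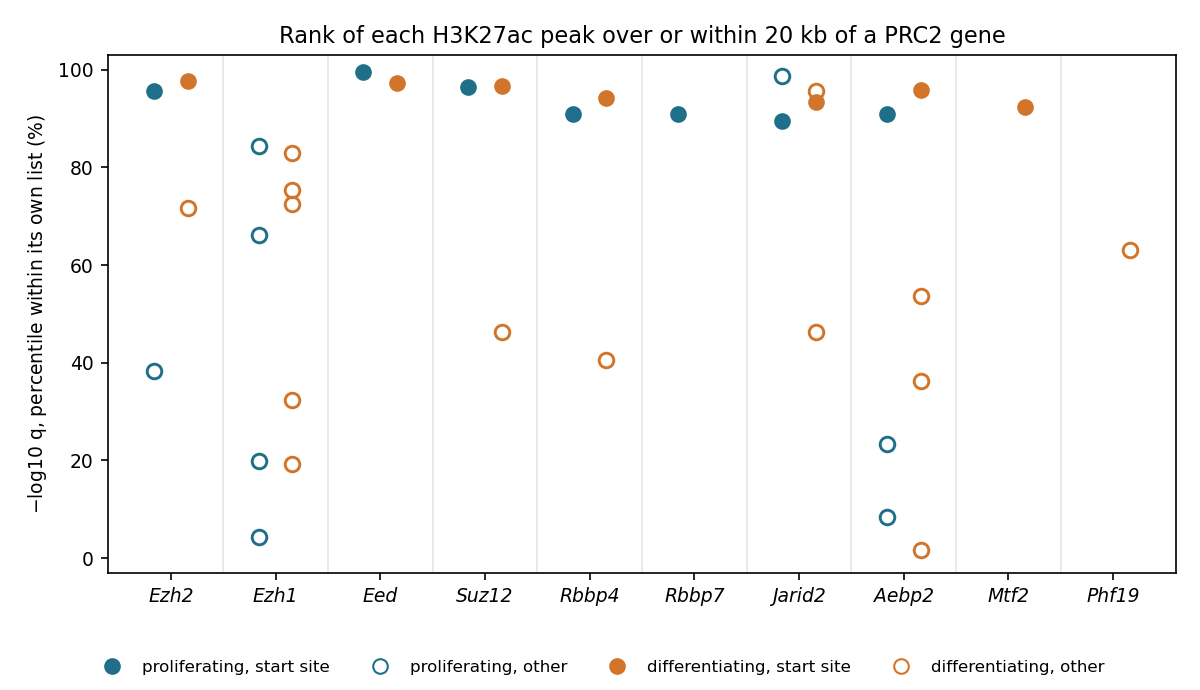
Percentile of −log10 q within its own list for each of the 15 proliferating and 21 differentiating peaks, by gene, with filled circles for start-site peaks and open circles for the rest. Filled circles lie between 89.5 and 99.5, while open circles spread from 1.71 to 98.7, the uppermost of them in Jarid2.

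Ezh2, the catalytic subunit of dividing cells (ENSMUSG00000029687.16, chromosome 6, minus strand, TSS at 47595341), had a peak over its start in both states. The peak of proliferating cells covered chr6:47594603-47595838, from -497 to 738 bp of the TSS, and was 1236 bp wide with a fold enrichment of 3.99 and a −log10 q of 4.9998 (percentile 95.6). In differentiating cells it covered chr6:47594337-47596194, was 1858 bp wide and had a fold enrichment of 4.23 and a −log10 q of 6.93 (percentile 97.7). The narrower peak lay wholly inside the wider one, which reached 266 bp and 356 bp further at its ends. Both covered 4 of the 6 protein-coding transcript starts of Ezh2, and the NF-Y and E2F letters printed above lay inside both. Each state had 1 more peak near Ezh2, and neither was shared. In proliferating cells it was 263 bp wide, lay 9287 bp upstream at percentile 38.2, and 77.2% of its bases were annotated repeat. In differentiating cells it was 767 bp wide at percentile 71.6, began 49310 bp into the gene and overlapped 4 exons and the start of a non-coding Ezh2 transcript.

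Ezh1, the paralogue of Ezh2 that is known from non-dividing cells (ENSMUSG00000006920.14, chromosome 11, minus strand, TSS at 101226463), had no start-site peak in either state, although its start was CpG-rich (ratio 0.88). The widest peak of its window lay upstream and was present in both states, although the shared peak near its 3′ end ranked higher by −log10 q in differentiating cells. It covered chr11:101230223-101232341 in proliferating cells, between -5878 and -3760 bp of the TSS, at a fold enrichment of 3.38 and percentile 84.4 of −log10 q. In differentiating cells it covered chr11:101229808-101232323, between -5860 and -3345 bp, at a fold enrichment of 2.94 and percentile 75.3. The widths of 2119 bp and 2516 bp stood at percentiles 97.9 and 99.0 of width, and 2101 bp were shared. No gene was annotated under it and Ezh1 was the nearest protein-coding start. Unlike the start-site peaks it was poor in CpG, with observed over expected ratios of 0.24 and 0.22, against 0.95 and 0.91 under the Ezh2 start-site peaks. The 300 bases at the centre of the shared part are printed to show this, with the 5 CpG in capitals.
Ezh1 upstream region, chr11:101231124-101231423, minus strand: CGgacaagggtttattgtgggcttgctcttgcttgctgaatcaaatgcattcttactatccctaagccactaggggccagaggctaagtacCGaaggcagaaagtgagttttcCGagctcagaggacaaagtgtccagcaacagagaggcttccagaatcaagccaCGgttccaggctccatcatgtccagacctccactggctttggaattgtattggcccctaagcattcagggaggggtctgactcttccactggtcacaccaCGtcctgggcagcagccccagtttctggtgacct
The other peaks near Ezh1 lay mostly beyond its 3′ end. A peak over the start of Plekhh3, whose TSS it covered, and over part of the neighbouring Cntnap1 was present in both states at percentiles 4.28 and 19.3. A second shared peak lay within Cntnap1 near the end of Ezh1, at percentiles 19.8 and 83.0, and another peak in Cntnap1, at percentile 66.2, was in the proliferating list alone. In differentiating cells 1 peak lay on Ezh1 itself, 25201 to 26905 bp from the TSS at percentile 32.4, over the start of a non-coding Ezh1 transcript. In the same state 1 lay 19116 bp upstream, 171 bp from the TSS of Ramp2, at percentile 72.5. The wide upstream peak was the only one in each state for which the start of Ezh1 was the nearest protein-coding start.

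Eed, which reads the methylated histone tail (ENSMUSG00000030619.9, chromosome 7, minus strand, TSS at 89980983), had 1 peak in its window in each state. In proliferating cells it covered chr7:89980642-89981273, 632 bp with a fold enrichment of 6.81 and a −log10 q of 13.4, the highest percentile of all peaks near the members (99.5). In differentiating cells it covered chr7:89980630-89981290, 661 bp with a fold enrichment of 4.71 and a −log10 q of 6.62 (percentile 97.3). The ends of both peaks lay 12 bp and 17 bp apart, the proliferating peak inside the other. The non-coding gene E230029C05Rik starts 260 bp away on the opposite strand under the same peak, so the acetylation cannot be assigned to either gene.

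Suz12, the scaffold of the core (ENSMUSG00000017548.15, chromosome 11, plus strand, TSS at 79993106), had a start-site peak of 1217 bp in proliferating cells (chr11:79992556-79993772, fold enrichment 4.54, percentile 96.5 of −log10 q) and of 1277 bp in differentiating cells (chr11:79992631-79993907, fold enrichment 4.30, percentile 96.7). They shared 1142 bp. In differentiating cells alone a 279 bp peak lay beyond the 3′ end at percentile 46.2, with 50.2% of its bases in repeats.

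The histone-binding genes, whose proteins also serve other chromatin complexes, differed from each other. Rbbp4 (ENSMUSG00000057236.10, chromosome 4, minus strand, TSS at 129335370) had a start-site peak in both states, of 1489 bp in proliferating cells (chr4:129334689-129336177, fold enrichment 4.13, percentile 90.9) and of 1472 bp in differentiating cells (chr4:129334943-129336414, fold enrichment 3.89, percentile 94.3). The protein-coding gene Zbtb8os starts 325 bp away on the other strand under both peaks. In differentiating cells 1 more peak, at percentile 40.6, lay beyond the 3′ end of Rbbp4. Rbbp7 (ENSMUSG00000031353.13, chromosome X, plus strand, TSS at 162760402) had a peak in proliferating cells alone, chrX:162760020-162760839, 820 bp wide with a fold enrichment of 4.49 and a −log10 q of 3.85 (percentile 90.9). The nearest differentiating peak lay 75086 bp from its TSS. On chromosome X 4.64% of protein-coding genes had a promoter peak in proliferating and 4.96% in differentiating cells, well under the shares over all chromosomes.

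The PRC2.2 genes had their start-site peaks inside the gene. Jarid2, which helps to bring PRC2 to chromatin (ENSMUSG00000038518.15, chromosome 13, plus strand, TSS at 44729474), had a peak from 562 to 2149 bp of the outermost TSS in proliferating cells (chr13:44730036-44731623, 1588 bp, fold enrichment 3.97, percentile 89.5). In differentiating cells it lay from 635 to 1900 bp (chr13:44730109-44731374, 1266 bp, fold enrichment 4.01, percentile 93.4). Both covered 5 of the 8 protein-coding transcript starts and the whole RefSeq promoter printed above, and neither reached the outermost start. Aebp2, a DNA-binding partner of Jarid2 (ENSMUSG00000030232.18, chromosome 6, plus strand, TSS at 140622663), had a peak from 968 to 2104 bp in proliferating cells (chr6:140623631-140624767, 1137 bp, fold enrichment 4.06, percentile 90.9) and from 501 to 2254 bp in differentiating cells (chr6:140623164-140624917, 1754 bp, fold enrichment 3.99, percentile 95.9). The first covered 1 and the second 3 of 6 protein-coding starts. The CpG ratio was 0.86 and 0.85 under these Aebp2 peaks, against 0.23 at the outermost start. The other peaks near Aebp2 were each in 1 list alone and weaker, at percentiles 23.4 and 8.49 in proliferating cells and between 1.71 and 53.8 in differentiating cells.

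Jarid2 also held the strongest peak away from a start site, in an intron about 140 kb into the gene. It covered chr13:44869373-44870226 in proliferating cells, 854 bp with a fold enrichment of 5.82 and a −log10 q of 7.84 (percentile 98.7). In differentiating cells it covered chr13:44869379-44870207, 829 bp with a fold enrichment of 4.87 and a −log10 q of 5.60 (percentile 95.7). The ends differed by 6 bp and 19 bp between the states. The letters of this peak are not unique to Jarid2. Of the 36 peaks near the members, searched against the chromosomes for stretches of at least 200 bp with at least 90% identity outside annotated repeats, these 2 were the ones with any other match. They matched 17 other places with 90.9% to 98.9% identity over 210 to 466 bp, and the matching part ran from base 212 to base 671 of the 854 bp. Of the 17 places 8 lay under a peak in proliferating cells and 10 in differentiating cells, the 8 included, where any overlap counted. Peaks covered 0.808% and 0.863% of all chromosome bases. That is a share of single bases and not of stretches of this length that touch a peak. The peaks at these places had median percentiles of 95.02 and 95.8. Of all bases of the proliferating Jarid2 peak, 34.7% were annotated repeat. Whether the stretch is part of 28S ribosomal RNA was not tested, since no ribosomal RNA sequence was compared with it here, so what it is remains unsettled. Whether reads from other copies contributed to the fold enrichment and rank of the Jarid2 peak was not tested. The 150 bases printed from the Jarid2 intron and from the match with the highest alignment score, on chromosome 15 with 95.6% identity over 456 bp in all, show how near the copies are, with the 3 differing bases in capitals.
Jarid2 intron, chr13:44869778-44869927, plus strand: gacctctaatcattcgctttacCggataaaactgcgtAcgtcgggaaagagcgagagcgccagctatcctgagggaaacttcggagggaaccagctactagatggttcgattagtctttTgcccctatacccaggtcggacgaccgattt
Match with the highest alignment score, chr15:86194991-86195140, minus strand: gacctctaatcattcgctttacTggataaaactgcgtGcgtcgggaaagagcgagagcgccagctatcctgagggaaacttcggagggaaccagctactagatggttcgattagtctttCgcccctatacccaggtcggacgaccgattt
The place on chromosome 15 lay under a peak in both states as well, at percentiles 80.8 and 39.0. The only other intronic peak of Jarid2 was in differentiating cells, 279 bp wide, 27751 bp from the TSS at percentile 46.3, with 69.9% of its bases in repeats.

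**Figure D3:**
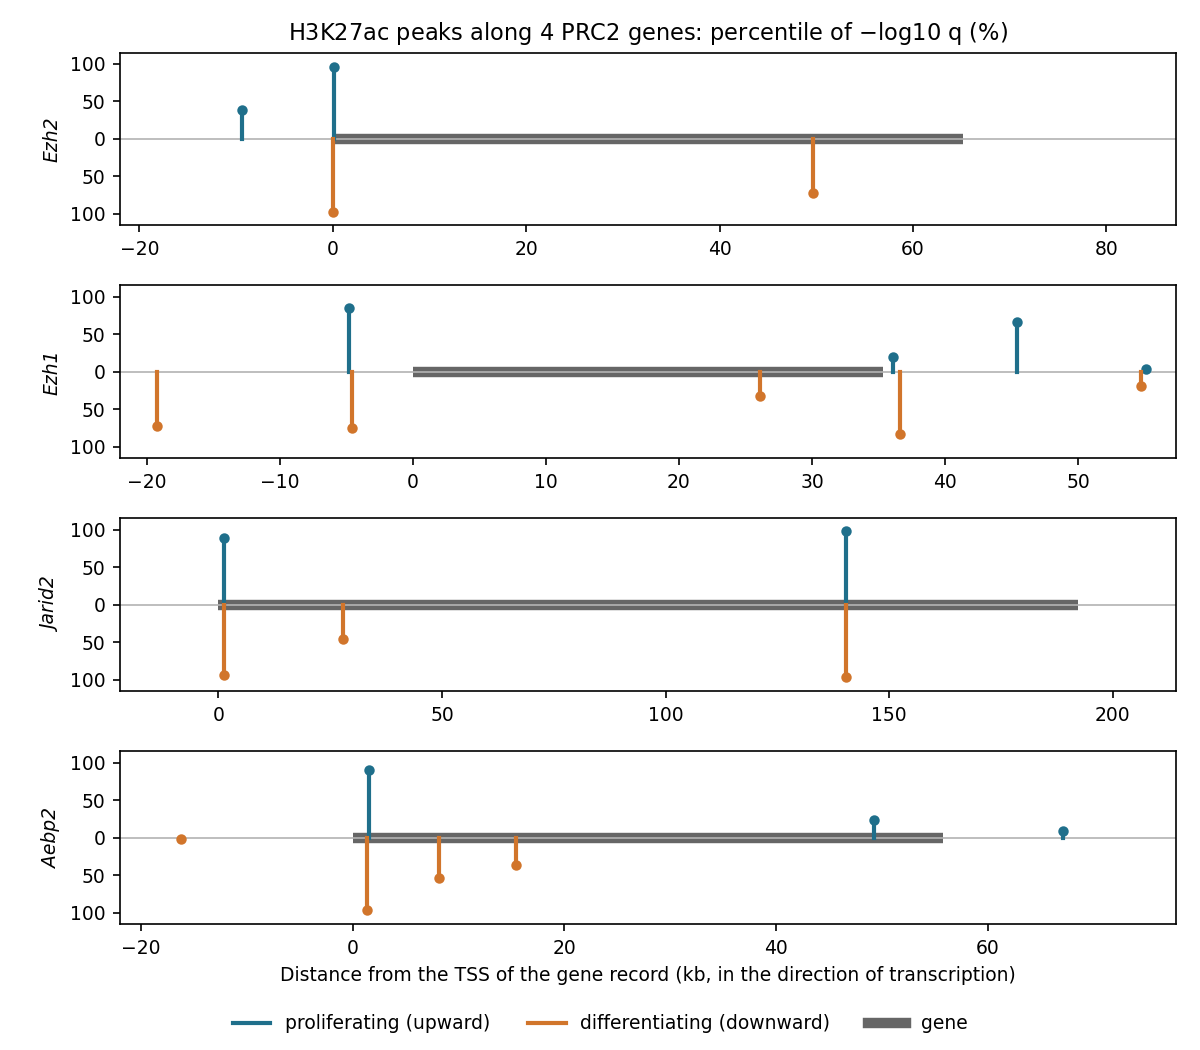
Peaks along Ezh2, Ezh1, Jarid2 and Aebp2 by distance from the TSS in kb, with the height of each stem giving the percentile of −log10 q within its own list, upward for proliferating and downward for differentiating cells, and a grey bar for the gene. Stems near 0 stand tall in both states for Ezh2, Jarid2 and Aebp2, Ezh1 has its pair upstream of the gene, and Jarid2 has a second tall pair at about 140 kb.

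The Polycomb-like genes of PRC2.1 had no peak in their windows in proliferating cells. Mtf2, which binds unmethylated CpG DNA (ENSMUSG00000029267.17, chromosome 5, plus strand, TSS at 108065674), had 1 peak in differentiating cells, chr5:108065315-108066048, from -359 to 374 bp of the TSS. It was 734 bp wide with a fold enrichment of 4.42 and a −log10 q of 4.48 (percentile 92.4), and covered 4 of the 5 protein-coding starts. The nearest proliferating peak lay 66650 bp from the TSS. Phf19 (ENSMUSG00000026873.9, chromosome 2, minus strand, TSS at 34914026) had no start-site peak, although its start was 75.7% GC. In differentiating cells a 386 bp peak lay on a coding exon, chr2:34905244-34905629, 8397 bp from the TSS, with a fold enrichment of 3.32 at percentile 63.2. The nearest proliferating peak was 42535 bp away. A peak in 1 list and not in the other is a difference in calls between single libraries, and the level of H3K27ac below the calling threshold is unknown.

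Whether peaks were shared between the states was counted next. Of the 15 in proliferating cells 10 overlapped a differentiating peak (66.7%, 95% exact interval 38.4% to 88.2%), and of the 21 in differentiating cells 10 overlapped a proliferating one (47.6%, 25.7% to 70.2%). Over the whole lists 29.2% and 30.1% of peaks had a counterpart, a share that lies under the first interval and within the second. Start-site peaks are shared more often in general, in 76.0% and 66.8% of cases over all protein-coding genes, and 6 of 7 members' start-site peaks in each state had a counterpart. Away from the members' own start sites 4 of 8 and 4 of 14 did. Among all peaks away from the start of any protein-coding gene, 18.7% and 19.7% did. That set is narrower, since it leaves out peaks such as the one over the start of Plekhh3, which is among the 4. The shared ones away from the members' own start sites were the wide Ezh1 peak, the Jarid2 intronic peak and those at Plekhh3 and Cntnap1. Peaks of the smallest width in a list, 263 bp in 22.9% of proliferating and 279 bp in 17.5% of differentiating peaks, made up 1 of the 15 and 5 of the 21, and none of these 6 was shared.

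The other Polycomb genes were taken from a list of 41 that covers the remaining PRC2 accessory subunits, PRC1 in its canonical and variant forms, the PR-DUB deubiquitinase and the H3K27 demethylases. Of these, 25 had a promoter peak in proliferating cells (61.0%, 95% exact interval 44.5% to 75.8%) and 28 in differentiating cells (68.3%, 51.9% to 81.9%). All protein-coding genes had one in 23.7% and 27.7% of cases. In both states 22 of the 41 had one, against 17.6% of all protein-coding genes, which is also the share to set beside the group counts below. A further 10 had one in neither state, for which no share of all genes was made. CpG-rich starts were found in 34 of the 41, of which 21 and 24 had a promoter peak. The shares of all CpG-rich genes, 42.1% and 49.8%, lie just below the intervals of the 41. Those intervals also cover genes without a CpG-rich start, and no interval was made for the 34 alone. The intervals of the 41 overlap those of the 10 PRC2 genes (50%, 18.7% to 81.3% in each state). By group, a promoter peak in both states was held by 4 of 8 PRC1 core and Pcgf genes, 6 of 10 Cbx and Phc genes, 3 of 9 variant PRC1 genes, 5 of 8 PR-DUB genes, 2 of 4 PRC2 accessory genes and both H3K27 demethylase genes. The E3 ligase genes Ring1 (percentiles 94.0 and 96.6) and Rnf2 (93.5 and 98.4), which ubiquitinate histone H2A, ranked high in both lists. Mbd6 (94.1 and 91.1) and Asxl2 (87.6 and 97.2) of PR-DUB and Bmi1 (81.5 and 91.6), a partner of the ligases, also had a promoter peak in both.

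**Figure D4:**
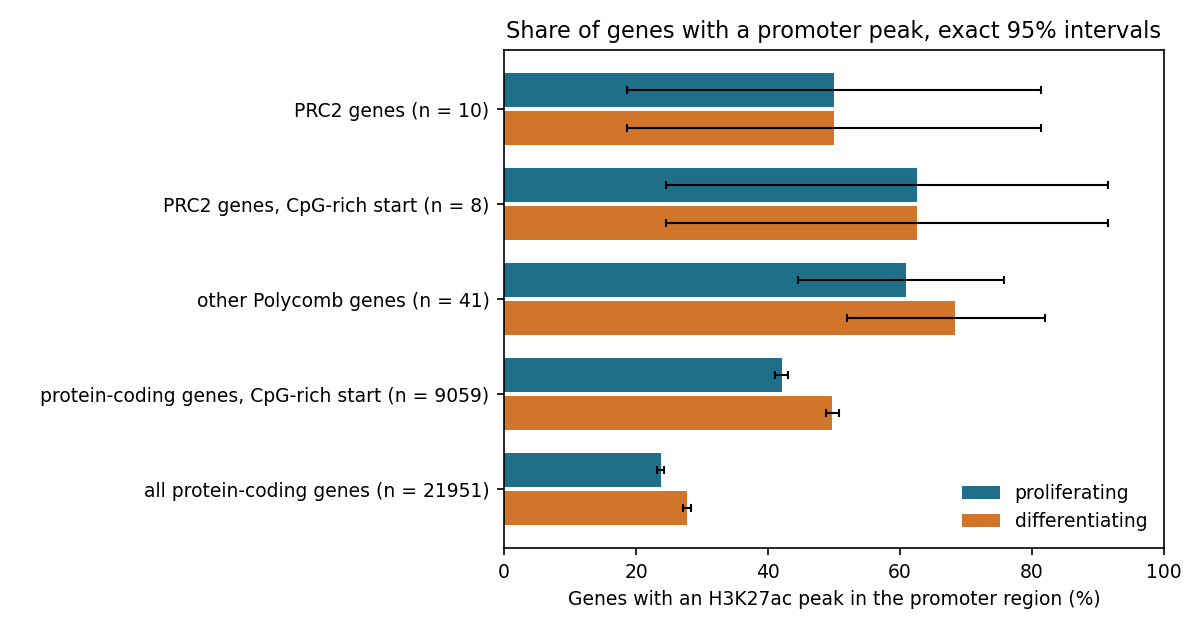
Share of genes with a promoter peak of H3K27ac in proliferating and differentiating cells, as bars from 0 with 95% exact intervals, for the PRC2 genes, their CpG-rich subset, the other Polycomb genes, all CpG-rich protein-coding genes and all protein-coding genes. The intervals of the PRC2 genes run from 18.7% to 81.3% in each state. They include the share of all CpG-rich genes, 42.1% and 49.8%, and that of all protein-coding genes, 23.7% and 27.7%.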

How the data were processed

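H3K27ac ChIP-seq peak lists of proliferating and differentiating Oli-neu cells were used, with 1 library per state. Per the labels and the study's methods, the authors mapped reads with Bowtie 2.1.0 to GRCm38/mm10, kept unique reads without duplicates (SAMtools), called broad peaks with MACS2 2.0.10 and removed blacklisted regions. An input library is not given in the sources used here. The deposited text values were read as fold enrichment (ratio), −log10 p and −log10 q by the order the caller writes them. The weakest deposited q-value was 0.0995 and 0.0983, and 96.1% and 88.5% of peaks had q of at most 0.05, the cutoff in the methods.

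Peaks were joined to GENCODE M21 genes, where 1 shared base counted as overlap, with Python 3.11.15, numpy 2.4.6, pandas 2.3.3, scipy 1.17.1, pysam 0.24.0 and matplotlib 3.10.9. Copies were sought with BLAST+ 2.17.0. Overlap counts were tested on simulated data. Without replicates or read counts there is no test, and intervals (95% Clopper-Pearson) cover counting error only. Members and lists were chosen with earlier results of these data known. Named were all members, genes starting within 1000 bp of a member's peak and nearest to it, and the 6 other Polycomb genes ranked highest in both lists, of which 1 is not reported here. Cntnap1, Zbtb8os, E230029C05Rik, Olig2, Sox10 and the search for copies were chosen after values were seen. The culture methods of the study differ from the labels on the days of differentiation, and the labels were followed.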

Additional observations from a re-analysis of the deposited data

How the results depend on the processing

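Of 74 alternative values of 11 counts and shares, 64 stayed within 1.5 times the count or within the interval of the share. When both lists were reduced to peaks whose −log10 q reached 5 (1257 and 1601 peaks), members with a promoter peak were 2 in proliferating cells and 2 in both lists, members with a peak in the window 3 in proliferating cells, peaks in the windows 3 and 6, the share with a counterpart in proliferating cells 100%, and other Polycomb genes with a promoter peak 4 and 6. The share of all protein-coding genes was not computed at this cutoff, so these counts cannot be read as high or low. The Ezh2 start-site peak of proliferating cells, at a −log10 q of 4.9998, only just missed this cutoff. Counting the TSS of every annotated transcript, non-coding ones included, gave 7 members in proliferating and 9 in differentiating cells. No share of all protein-coding genes was made for this looser rule, so these counts have no background beside them. The gene body alone held 9 proliferating peaks. Without the intronic Jarid2 peak, an alternative added after seeing the data, 14 and 20 peaks remained, with a counterpart for 64.3% and 45.0%. No paired analysis was possible because each state has 1 H3K27ac library, and the ATAC-seq samples that share replicate numbers were not analysed here.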
